A study of Mus musculus with 3 samples.

Results

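The miRNAs miR-191-5p and miR-425-5p are the guide strands of a pair of hairpins that lie close together on mouse chromosome 9 and are thought to be cut from one primary transcript. They were taken by name from 1915 listed mature miRNAs, and both were listed above 0 in all 3 libraries, as were 132 of the 1915. The other strands of the same hairpins, miR-191-3p and miR-425-3p, are described beside them. The groups were exosomes released by the mouse melanoma line B16, whose labels give the strain C57BL/6J; exosomes released by the mouse skin line JB6, whose labels give a normal state and the strain BALB/c; and the B16 cells themselves. Exosomes are small vesicles shed into the medium, collected here by ultracentrifugation. No agent, genotype change or time point is named for any group. With 1 library per group there is no replicate check on any difference, and the 95% intervals given cover only counting error.

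A miRNA is cut from a hairpin as a short duplex, of which one strand, the guide, is loaded into an Argonaute protein and pairs with messenger RNAs mainly through its seed, bases 2 to 8. The other strand is mostly degraded. Hairpins of one primary transcript are transcribed together, yet their mature strands can differ in amount, since cutting, strand choice and turnover act on each hairpin separately. In human cells MIR191 and MIR425 lie in the DALRD3 gene. miR-191-5p is found in many tissues and is often used as an internal reference in small RNA assays, as is miR-425-5p.

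The strands of both hairpins are shown to compare their seeds, which decide the targets of each strand. Seeds are in capitals, and the sequences are those of RefSeq on build GRCm38.p6, plus strand.
miR-191-5p: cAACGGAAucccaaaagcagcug
miR-191-3p: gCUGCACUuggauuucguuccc
miR-425-5p: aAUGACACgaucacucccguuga
miR-425-3p: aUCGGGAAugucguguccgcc
The guides are each 23 bases long, with different seeds, and are alike at 5 positions when aligned from the first base. miR-191-5p lies at chr9:108568325-108568347, miR-191-3p at chr9:108568367-108568388, miR-425-5p at chr9:108568789-108568811 and miR-425-3p at chr9:108568830-108568850, each with 1 genomic copy in that table. Of the 1623 miRNAs in the files that matched a RefSeq sequence by name, 0 others shared the seed of miR-191-5p. One, miR-489-3p, shared that of miR-425-5p, and it was listed at 0 in every library.
miR-489-3p: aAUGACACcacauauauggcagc

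The whole hairpins are shown with both strands in capitals, because the balance of the strands is described further on.
Mir191: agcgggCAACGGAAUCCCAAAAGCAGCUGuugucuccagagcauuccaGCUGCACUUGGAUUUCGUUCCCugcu
Mir425: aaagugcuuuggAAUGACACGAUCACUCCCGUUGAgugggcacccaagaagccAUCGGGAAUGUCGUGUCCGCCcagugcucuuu
Mir191 spans chr9:108568319-108568392 and Mir425 chr9:108568777-108568861, with 384 bases between them. In GENCODE M21, on the same build, both hairpins lie in an exon of the long non-coding RNA 4833445I07Rik, chr9:108567533-108569174, which ends upstream of the protein-coding gene Dalrd3, chr9:108569886-108572774. In RefSeq the span of Dalrd3 starts at 108567484 and holds both hairpins. GENCODE also lists a predicted miRNA, Gm24083, on the opposite strand across Mir191. The sources used here do not say whether counting used the strand, so reads from both strands of Mir191 cannot be told apart. The short motifs GGAG and CCCU, named in work on miRNAs in exosomes of human T cells, were searched in the mature strands as written, with no reverse strand. GGAG was in 14.2% and CCCU in 11.6% of the 1623 sequences, and neither was in any of the 4 strands of this pair.

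Depth sets what can be seen. Reads assigned to miRNAs numbered 45677 in B16 exosomes, 4495956 in JB6 exosomes and 7925726 in B16 cells, and no count from 1 to 9 was listed, so a listed 0 stands for at most 9 reads. That limit was 0.0197% of miRNA reads in B16 exosomes, 0.0002002% in JB6 exosomes and 0.000114% in B16 cells. At the depth of the B16 exosome library, the JB6 exosome shares would give 14.04 reads of miR-191-5p and 1.26 of miR-425-5p, and the B16 cell shares 169 and 29.5 reads. The labels were checked against markers. miR-211-5p, a melanocyte miRNA, had 83 reads in B16 exosomes, a listed 0 in JB6 exosomes and 21080 reads in B16 cells. Of the other melanocyte miRNAs, miR-204-5p had a listed 0 in B16 exosomes, 14 reads in JB6 exosomes and 60 in B16 cells, and miR-137-3p was at a listed 0 in every library. The 7 keratinocyte and epithelial miRNAs ran against the skin label of JB6, with 0 of 7 listed in B16 exosomes, 2 of 7 on 35 reads (0.000778%) in JB6 exosomes and 4 of 7 on 197 reads (0.00249%) in B16 cells, and miR-205-5p was at a listed 0 in all 3. Summed by type, liver, erythroid and muscle markers were higher in the library labelled JB6 exosomes than in B16 cells, and leukocyte markers were not. miR-122-5p, of liver, held 0.0525% of reads in B16 exosomes, 25.1% in JB6 exosomes and 0.00531% in B16 cells. The 3 erythroid miRNAs together held 0.748% in JB6 exosomes and 0.00209% in B16 cells, the 3 muscle miRNAs 0.371% (16619 of 16665 reads were miR-206-3p) and 0.000139%, and the 5 leukocyte miRNAs 0.00349% and 0.00486%, and all of these were at a listed 0 in B16 exosomes. Of the 385 leukocyte reads in B16 cells 375 were miR-155-5p, which had 88 reads in JB6 exosomes. The leukocyte miRNAs miR-142a-3p, miR-142a-5p and miR-150-5p were higher in JB6 exosomes, at 22, 12 and 35 reads. In B16 cells they had a listed 0, a listed 0 and 10 reads, and miR-223-3p was at a listed 0 in both. The part of all these markers in the values of miR-191-5p and miR-425-5p was not tested.

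miR-191-5p was the more abundant partner in every library. It had 89 reads in B16 exosomes, 1382 in JB6 exosomes and 29343 in B16 cells. As a share of miRNA reads this was 0.195% in B16 exosomes (exact, Clopper-Pearson, 95% interval 0.157 to 0.240), 0.0307% in JB6 exosomes (0.0291 to 0.0324) and 0.370% in B16 cells (0.366 to 0.374). By these shares B16 cells were highest, B16 exosomes next and JB6 exosomes lowest, and the intervals did not overlap. With DESeq2 size factors and the authors' totals, described below, B16 exosomes were lowest, at log2 ratios over JB6 exosomes of -0.040 and -1.23. In rank it was 54th of 149 listed miRNAs in B16 exosomes, 88th of 389 in JB6 exosomes and 36th of 559 in B16 cells. Its neighbours in that order were chosen as the nearest in count, so that they lay within counting error of it is no finding. They were miR-30e-3p and miR-17-5p in B16 exosomes, miR-6538 and miR-378c in JB6 exosomes, and miR-29a-3p and miR-128-3p in B16 cells.

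By share of miRNA reads, miR-425-5p had another order. It had 47 reads in B16 exosomes, 124 in JB6 exosomes and 5115 in B16 cells. The shares were 0.103% in B16 exosomes (0.0756 to 0.137), 0.00276% in JB6 exosomes (0.00229 to 0.00329) and 0.0645% in B16 cells (0.0628 to 0.0663). Here B16 exosomes were highest, and B16 cells lay between them and JB6 exosomes, again with intervals that did not overlap. This order depended on the scaling. With TMM factors and the authors' totals B16 cells were highest, at log2 ratios of B16 exosomes over B16 cells of -0.35 and -3.40. It ranked 78th in B16 exosomes, 188th in JB6 exosomes and 98th in B16 cells. Next to it in count, chosen in the same way, stood miR-744-5p and let-7e-5p in B16 exosomes, miR-421-3p and miR-370-3p in JB6 exosomes, and miR-3081-3p and miR-1964-3p in B16 cells. Both guides together held 0.298% of reads in B16 exosomes (0.2499 to 0.352), 0.0335% in JB6 exosomes (0.0318 to 0.0352) and 0.435% in B16 cells (0.430 to 0.439). In such bulk RNA, fewer cells or vesicles that carry a miRNA and less of it in each cannot be told apart.

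**Figure D1:**
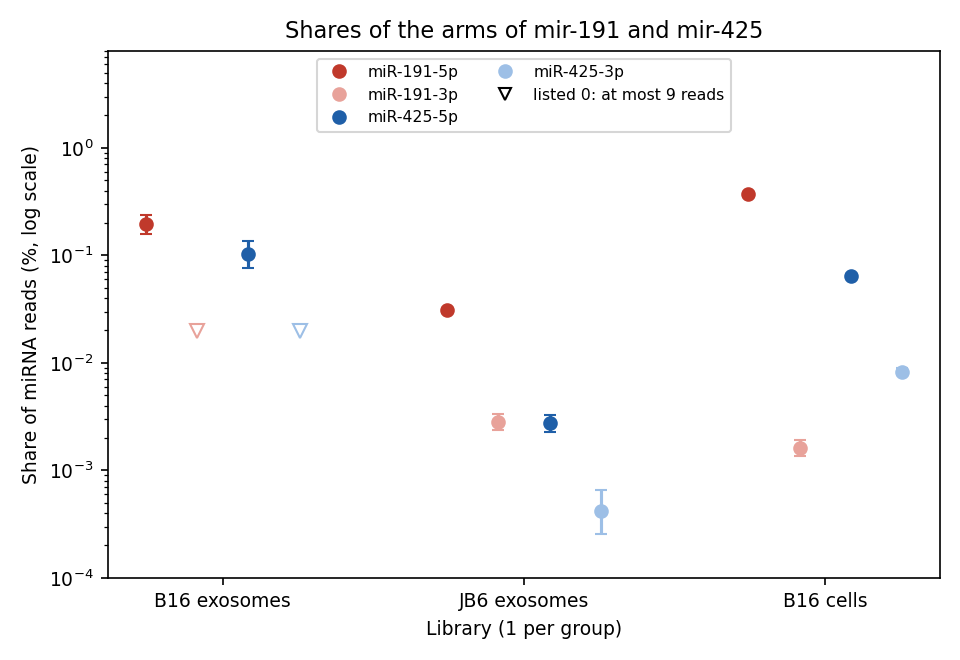
Share of miRNA reads in percent, on a log axis, for the 4 strands of mir-191 and mir-425 in each library, with 1 library per group; bars are exact 95% intervals for counting error, and open triangles mark a listed 0 at its limit of 9 reads. miR-191-5p is above miR-425-5p in each library, and the gap is smallest in B16 exosomes, at 0.195% and 0.103%.

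The ratio of the partners within a library needs no scaling between libraries. The 2 guides stood at 1.89 reads of miR-191-5p per read of miR-425-5p in B16 exosomes (1.32 to 2.76), 11.1 in JB6 exosomes (9.27 to 13.5) and 5.74 in B16 cells (5.57 to 5.91). The ratio was thus lowest in B16 exosomes and highest in JB6 exosomes. Had the 136 reads of the pair in B16 exosomes been split as in B16 cells, 116 would have been miR-191-5p and 20.2 miR-425-5p. The observed split was 89 and 47. Split as in JB6 exosomes, they would have been 125 and 11.2.

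Between libraries, the partner ratio in B16 exosomes was 3.03-fold lower than in B16 cells (2.08 to 4.37) and 5.89-fold lower than in JB6 exosomes (3.85 to 8.90), and in JB6 exosomes it was 1.94-fold higher than in B16 cells (1.61 to 2.36). The same quantity was computed for 16 other pairs of guides from neighbouring hairpins, of which 11 could be set between B16 exosomes and either other library and 13 between JB6 exosomes and B16 cells. From B16 exosomes to B16 cells the other pairs differed by a median of 1.41-fold in either direction, 4 of 11 differed by 2-fold or more, and 1, miR-15b-5p with miR-16-5p, differed more than miR-191-5p with miR-425-5p, at 4.13-fold (2.28 to 8.21). That change rested on 12 reads of miR-15b-5p in B16 exosomes. Its interval overlaps that of miR-191-5p with miR-425-5p, so the order of these pairs is not settled. The pair miR-23a-3p with miR-27a-3p, of the miR-23/27/24 clusters, lay at the same size in the other direction, 3.03-fold higher in B16 exosomes (2.19 to 4.22). At the other end were miR-17-5p with miR-20a-5p, of the miR-17-92 cluster, at a change of 0.966 (0.733 to 1.26), and miR-181a-5p with miR-181b-5p at 0.946 (0.649 to 1.38). Between the exosome libraries 6 of 11 pairs differed more than miR-191-5p with miR-425-5p, and their median was 6.78-fold. Between JB6 exosomes and B16 cells 11 of 13 differed more, with a median of 6.74-fold. miR-16-5p, miR-181a-5p, miR-181b-5p and let-7c-5p have 2 genomic copies in the RefSeq table, so their ratios mix loci. Those of miR-191-5p and miR-425-5p do not. For miR-143-3p, miR-145a-5p, miR-23b-3p, miR-30b-5p, miR-30d-5p and miR-532-5p 0 copies were found by name, so whether their ratios mix loci is not known.

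**Figure D2:**
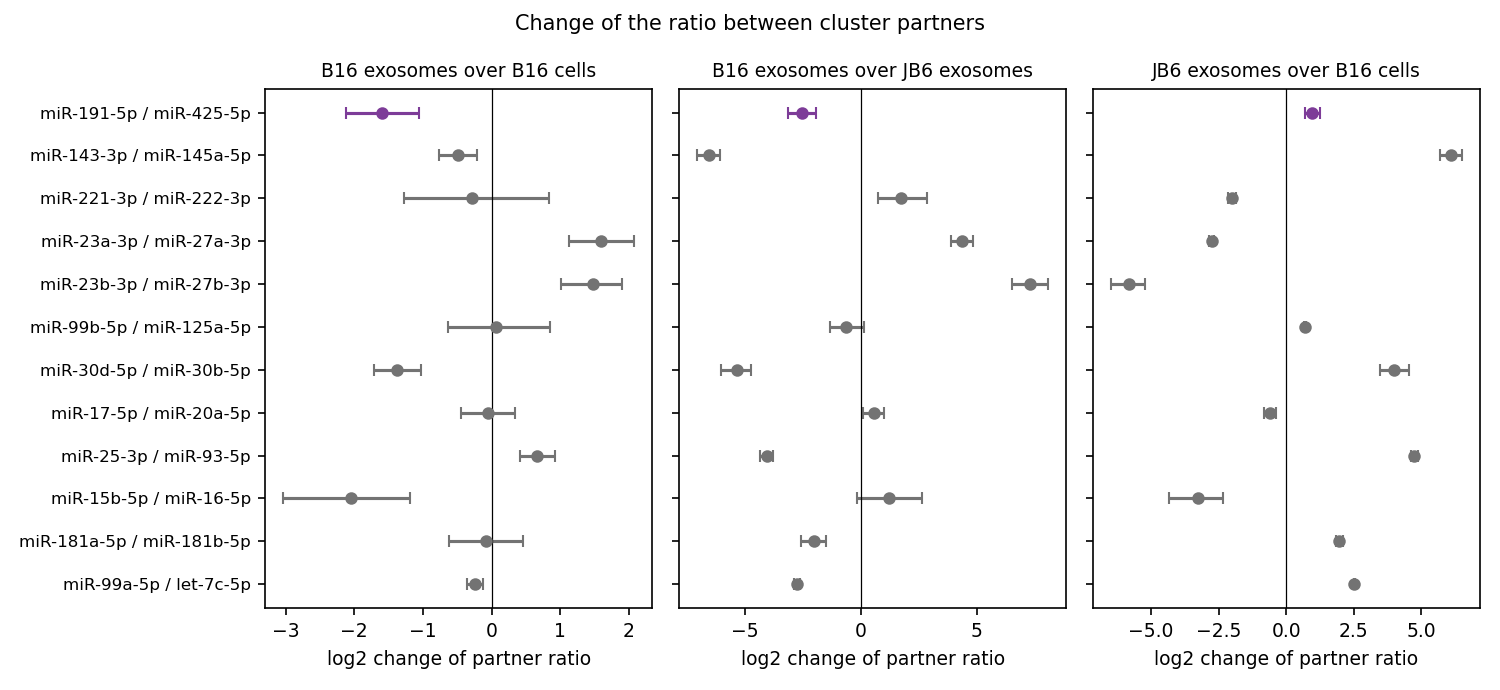
Change of the ratio between partners of a cluster, on the log2 scale, in each comparison for the 12 pairs that could be set in all 3; bars are exact 95% intervals for counting error, purple marks miR-191-5p with miR-425-5p, and the horizontal axes differ between panels. From B16 exosomes to B16 cells this pair lies at -1.60, with 1 other pair farther from 0, while in the panels with JB6 exosomes most other pairs lie farther from 0.

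B16 exosomes against B16 cells ask what the melanoma line releases relative to what it holds. In B16 exosomes the share of miR-191-5p was 1.90-fold lower (1.54 to 2.37) and that of miR-425-5p was 1.59-fold higher (1.17 to 2.12). The partners thus lay on opposite sides of 1, each by less than 2-fold. A call needed a ratio of 2-fold or more together with an interval that left out 1, which 0 of the 2 guides met, beside 16.4% of the 422 miRNAs that had at least 30 reads over the pair of libraries and 40.3% of the 144 listed above 0 in both. Among those 144, with a median log2 ratio of 0.03, miR-191-5p stood 120th and miR-425-5p 39th from the highest ratio. That order holds under any scaling, but the sign does not. TMM factors, which assume that most miRNAs are alike between libraries, gave log2 ratios of -1.94 for miR-191-5p and -0.35 for miR-425-5p, and the authors' totals, the larger totals behind their deposited RPM, gave -5.002 and -3.40, so the higher share of miR-425-5p in B16 exosomes turned to a lower one under both. miR-191-5p was lower under every scaling tried, with log2 ratios from -5.002 to -0.87. It met the 2-fold rule under TMM, DESeq2 size factors (a median of ratios over miRNAs) and the authors' totals. Of the 422 miRNAs, 93 were called lower and 16 higher under TMM, and 38 and 33 under DESeq2. Under the authors' totals 257 were called lower and 9 higher, so a lower call there was the common outcome and not particular to miR-191-5p.

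B16 exosomes against JB6 exosomes set vesicles of a melanoma line beside those of a skin line labelled normal. Line, strain, disease state and sequencing depth went together here and cannot be told apart. JB6 exosomes had 98.4 times the miRNA reads of B16 exosomes. The part of the authors' totals in miRNA counts was 79.9% in JB6 exosomes and 5.39% in B16 exosomes. The share of miR-191-5p was 6.34-fold higher in B16 exosomes (5.06 to 7.86) and that of miR-425-5p was 37.3-fold higher (26.1 to 52.6). Both guides were called higher, as were 31.3% of the 300 miRNAs with 30 or more reads, and 67.2% of the 131 listed above 0 in both. miR-191-5p lay at the middle of those 131, in 65th place with a log2 ratio of 2.66 beside a median of 2.62, and miR-425-5p was 28th with 5.22. Single miRNAs held much of the total in both libraries, such as miR-122-5p with 25.1% in JB6 exosomes and let-7i-5p with 17.5% in B16 exosomes. With each library's 10 most abundant miRNAs left out of its total, the ratios were 4.17 for miR-191-5p and 24.5 for miR-425-5p. miR-425-5p was higher in B16 exosomes under every scaling tried, with ratios from 2.52 under the authors' totals upward. For miR-191-5p the direction depended on the scaling, with ratios of 1.23 under TMM, 0.972 under DESeq2 and 0.427 under the authors' totals.

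**Figure D3:**
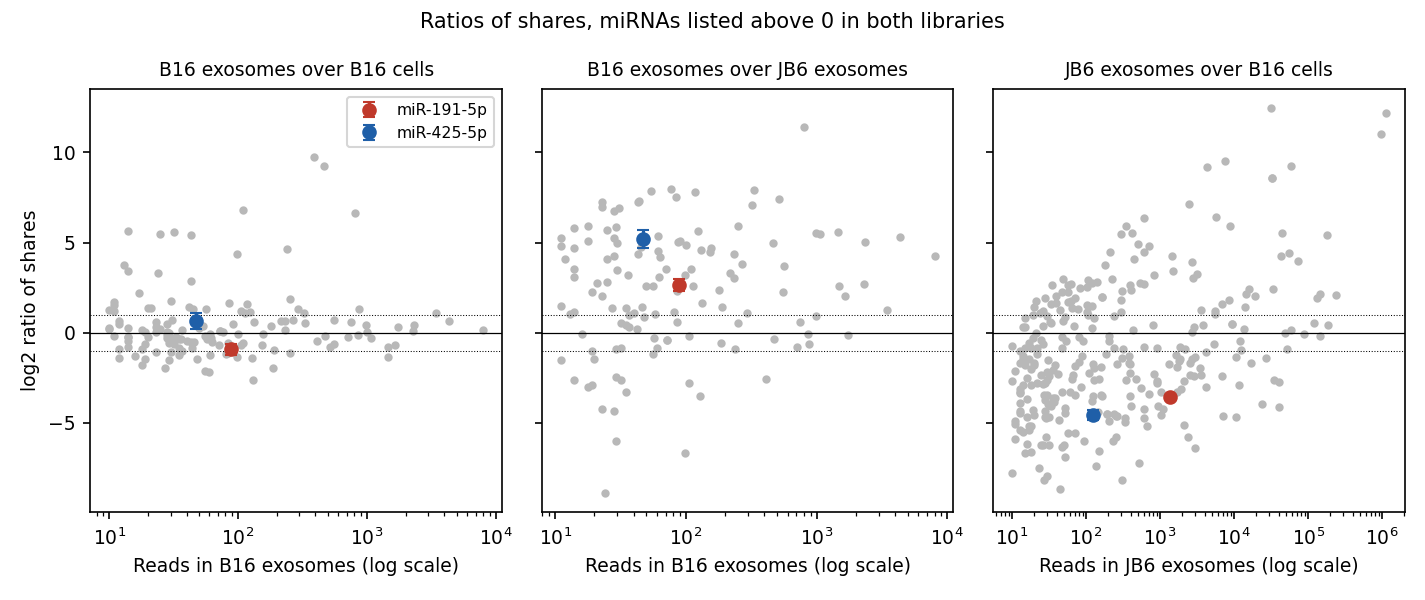
Log2 ratio of shares against the reads in the first-named library (log axis) for the miRNAs listed above 0 in both libraries, 144, 131 and 305 from left to right; dotted lines mark 2-fold, and bars on the 2 coloured guides are exact 95% intervals for counting error. miR-425-5p lies above miR-191-5p in both panels of B16 exosomes and below it in the panel of JB6 exosomes over B16 cells.

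JB6 exosomes against B16 cells differ in line, strain, disease state and source at once, and these cannot be told apart. The share of miR-191-5p was 12.04-fold lower in JB6 exosomes (11.4 to 12.7) and that of miR-425-5p was 23.4-fold lower (19.6 to 28.2). Both guides were called lower, as were 60.7% of 501 miRNAs, and 54.8% of the 305 listed above 0 in both. The median log2 ratio of those 305 was -1.47, and 25.2% of them had a lower ratio than miR-191-5p and 16.7% a lower one than miR-425-5p. Under every scaling tried both guides stayed lower in JB6 exosomes, with the smallest differences under DESeq2, at log2 ratios of -1.01 and -1.97. The same 3 libraries enter all comparisons, so their values are not independent.

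**Figure D4:**
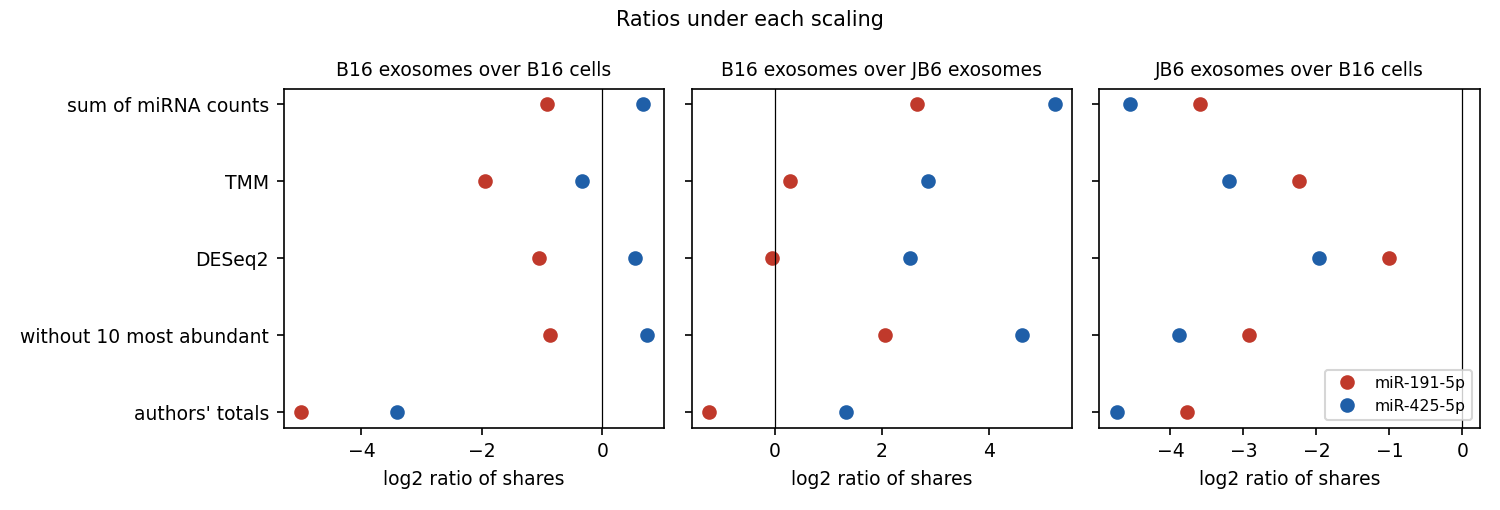
Log2 ratio of shares of miR-191-5p and miR-425-5p in each comparison under 5 scalings of the libraries; each point is 1 ratio, with no error shown, and the horizontal axes differ between panels. Each scaling moves both guides by the same step, so the gap between them stays, while miR-425-5p crosses 0 in the left panel and miR-191-5p in the middle one.

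The other strands were listed in the deep libraries only. miR-191-3p had a listed 0 in B16 exosomes, 127 reads in JB6 exosomes and 128 in B16 cells. These were shares of 0.00282% in JB6 exosomes and 0.00161% in B16 cells, a ratio of 1.75 (1.36 to 2.25), so the 3p strand was not lower where the 5p strand was 12.04-fold lower. Under the other scalings the ratio of miR-191-3p lay between 1.54 and 10.5. For mir-191 there were 10.9 reads of the 5p strand per 3p read in JB6 exosomes (9.07 to 13.2) and 229 in B16 cells (193 to 275), a ratio 21.1-fold lower in JB6 exosomes (16.2 to 27.3). The 5p strand made up 91.6% of the reads of mir-191 in JB6 exosomes (90.1 to 92.9) and 99.6% in B16 cells (99.5 to 99.6).

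The strand balance of mir-425 differed less. miR-425-3p had a listed 0 in B16 exosomes, 19 reads in JB6 exosomes and 657 in B16 cells, and its share was 19.6-fold lower in JB6 exosomes than in B16 cells (12.5 to 32.8), close to its 5p strand. The 5p strand was 6.53 times as frequent as the 3p strand in JB6 exosomes (4.01 to 11.2) and 7.79 times in B16 cells (7.18 to 8.46). The change was 0.838, with an interval of 0.511 to 1.45 that includes 1, and this interval lies outside that of mir-191, 0.0366 to 0.0616. In JB6 exosomes miR-191-3p, with 127 reads, was as frequent as miR-425-5p, with 124, while in B16 cells it had 128 reads beside 5115.

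Changes of strand balance were common between these libraries. Over 63 hairpins with both strands listed in JB6 exosomes and B16 cells, a set formed after these values were seen, 56 changed by 2-fold or more, with a median size of 8.87-fold, and in 46 the change was toward the 3p strand. mir-191 was 16th and mir-425 62nd by size. In B16 exosomes, the limit of 9 reads allowed only a bound, at least 9.89 reads of miR-191-5p per 3p read and at least 5.22 of miR-425-5p. At the strand ratio of JB6 exosomes 8.18 reads of miR-191-3p and 7.20 of miR-425-3p would be present in B16 exosomes, and at that of B16 cells 0.388 and 6.04. All 4 numbers are below 10, so the strand balance of B16 exosomes was not detectable at this depth.

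**Figure D5:**
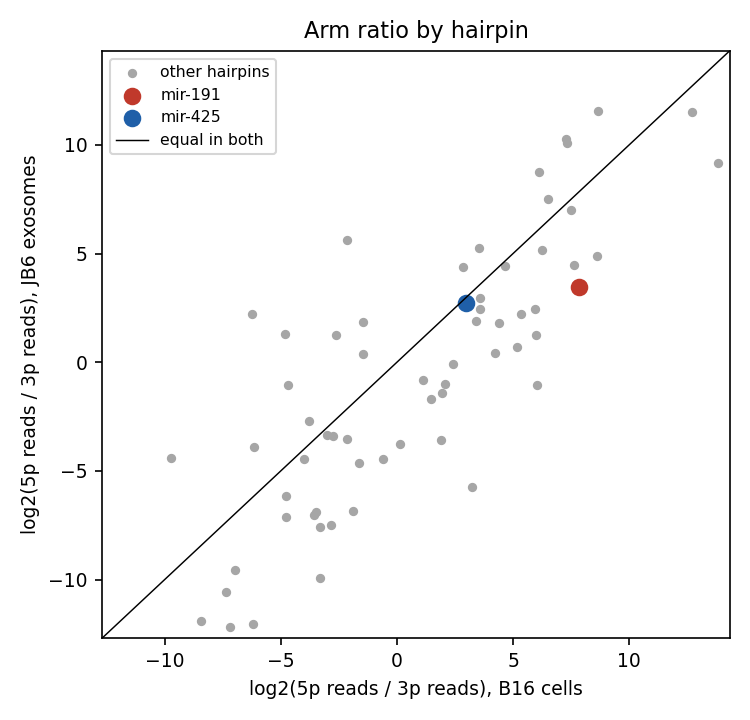
Log2 ratio of 5p to 3p reads in JB6 exosomes (vertical) against B16 cells (horizontal) for the 63 hairpins with both strands listed in both libraries; each point is 1 hairpin, and the line marks equal ratios. mir-191 lies well below the line, with 10.9 against 229, and mir-425 close to it, with 6.53 against 7.79.

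Both guides belong to a list of 17 miRNAs often used as internal references, of which the other 15 were compared with them. Across the 3 libraries the highest share was 12.04 times the lowest for miR-191-5p and 37.3 times for miR-425-5p. The 13 other reference miRNAs listed in all libraries spanned a median of 26.7-fold, from 1.52-fold for miR-25-3p, of the miR-106b-25 cluster, to 242-fold for miR-103-3p, which lies in Pank introns. All 132 miRNAs listed in every library had a median span of 13.4-fold. By span, counted from the smallest, miR-191-5p was 65th and miR-425-5p 92nd of 132. These spans depended on the scaling, which was varied after the values were seen. For miR-191-5p the span was 4.73-fold with TMM, 2.07-fold with DESeq2, 7.59-fold without the 10 most abundant miRNAs and 32.05-fold with the authors' totals, in places 38, 15, 56 and 68. For miR-425-5p it was 9.19-fold, 5.72-fold, 24.5-fold and 26.6-fold in the same order, in places 65, 58, 89 and 57. The median of all 132 ran from 7.31-fold with DESeq2 to 30.6-fold with the authors' totals. For the 13 other reference miRNAs it was 7.11-fold with DESeq2 and 38.8-fold with the authors' totals. With TMM it was 10.5-fold beside 9.34-fold for all 132. Without the 10 most abundant miRNAs it was 16.8-fold beside 11.2-fold. The gap between the reference miRNAs and all 132 thus depended on the scaling. miR-16-5p, with 123 reads in B16 exosomes, 238 in JB6 exosomes and 9558 in B16 cells, spanned 50.9-fold. miR-93-5p, with 156, 599 and 28551 reads in the same order, spanned 27.04-fold. miR-423-5p went the other way, with 0.0635% of reads in B16 exosomes, 4.03% in JB6 exosomes and 0.0926% in B16 cells. So did miR-92a-3p, with 0.902%, 5.27% and 1.22% in the same order. miR-451a, which is also one of the erythroid markers above, had a listed 0 in B16 exosomes. It had 606 reads in JB6 exosomes and 13 in B16 cells. In B16 exosomes against B16 cells, 1 of the other 15 was called higher, 3 lower, 9 neither and 1 not resolved. Not resolved means that a listed 0 gave a bound that did not reach the rule. The remaining 1 had under 30 reads. Of all 422, 8.53% were called higher and 7.82% lower, but 267 of them were not resolved. Of the 144 listed in both, 35 were called higher and 23 lower. In B16 exosomes against JB6 exosomes 9 were higher, 2 lower and 2 neither, with 2 not resolved, beside 31.3% of all 300 called higher, 67.2% of the 131 listed in both called higher, and 11.7% of the 300 called lower. In JB6 exosomes against B16 cells 3 were higher, 11 lower and 1 neither. Called lower were 60.7% of all 501 and 54.8% of the 305 listed in both. Called higher were 26.1% of all 501 and 83 of the 305. Other scalings gave 0 to 1 higher and 3 to 14 lower in the first of these comparisons. In the second they gave 4 to 8 higher and 3 to 8 lower. In the third they gave 3 to 6 higher and 7 to 11 lower. Over all tested miRNAs these scalings gave 2.13% to 8.53% higher and 7.35% to 60.9% lower in the first comparison. The second had 13.3% to 27.3% higher and 14.7% to 51% lower, and the third 25.3% to 40.7% and 26.7% to 64.9%. The 14 lower and the 60.9% both came with the authors' totals.

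The miRNAs with the most similar course over the 3 libraries were not the cluster partners. Likeness was the root mean square difference of log2 shares after each miRNA was centred on its own mean, a measure that no scaling of a library alters, over 3 libraries and 131 other miRNAs. For miR-191-5p the nearest were miR-29a-3p, a miRNA that restrains collagen genes, at 0.15, miR-30d-5p, of the miR-30 family, at 0.19, and miR-1843b-5p at 0.21. miR-29a-3p had 0.186% of reads in B16 exosomes, 0.0375% in JB6 exosomes and 0.372% in B16 cells. For miR-425-5p they were let-7f-5p, of the let-7 family, at 0.055, miR-30e-3p at 0.081 and miR-30a-5p at 0.11. miR-30e-3p had 0.199% of reads in B16 exosomes, 0.00576% in JB6 exosomes and 0.143% in B16 cells. The partners differed from each other by 1.05, which made miR-425-5p the 51st nearest to miR-191-5p and miR-191-5p the 48th nearest to miR-425-5p. With 3 libraries this order is a description of these libraries. The differences have no interval, and the order of the nearest miRNAs was not tested against counting error. In B16 exosomes miR-191-5p had 89 reads, miR-425-5p 47 and miR-1843b-5p 14.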

How the data were processed

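Small RNA of 3 libraries was used, with groups taken from the labels. Per the submitters' processing notes, bcl2fastq and BWA were used with mm10. The sources used here do not state versions, trimming, the miRNA annotation, use of strand or treatment of multiply mapped reads. The deposited counts are whole reads per mature miRNA made by the authors, unnormalized, with values below 10 listed as 0. The authors also deposited an RPM value, which is the count times a constant in each file, on totals of 847694 in B16 exosomes, 5626936 in JB6 exosomes and 8721363 in B16 cells, of which miRNA counts made up 5.39%, 79.9% and 90.9%. The sources used here do not state what else those totals hold.

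Shares were computed from the counts over the sum of miRNA counts. Ratios of shares have exact conditional binomial 95% intervals and changes of a ratio between libraries have exact conditional intervals (SciPy 1.17.1, Python 3.11.15); sequencing reads are not independent molecules, so these cover counting error only. With 1 library per group edgeR and DESeq2 give no test, and none was run. TMM factors (edgeR 4.0.16) and DESeq2 1.42.0 size factors served as other scalings. Calls used miRNAs with 30 or more reads over a pair, and a listed 0 was set to 9 reads as a bound. Named miRNAs were the guides and their other strands, miRNAs with a shared seed, the cluster and reference lists, the 3 nearest in course and the neighbours in rank. The members and lists were chosen with earlier results of these data known.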

Additional observations from a re-analysis of the deposited data

How the results depend on the processing

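Scaling moved the ratios and left the partner ratios as they were. On the log2 scale, B16 exosomes over B16 cells gave -0.93 for miR-191-5p and 0.67 for miR-425-5p, against -1.94 and -0.35 with TMM and -5.002 and -3.40 with the authors' totals. B16 exosomes over JB6 exosomes gave 2.66 and 5.22, against 0.30 and 2.85 with TMM, -0.040 and 2.52 with DESeq2, 2.06 and 4.62 without the 10 most abundant miRNAs, and -1.23 and 1.33 with the authors' totals. JB6 exosomes over B16 cells gave -3.59 and -4.55, against -2.24 and -3.20 with TMM, -1.01 and -1.97 with DESeq2, -2.92 and -3.88 without the 10 most abundant, and -3.78 for miR-191-5p with the authors' totals. With both strands summed, this last ratio was -3.47, and the log2 partner ratio in B16 cells was 2.35 against 2.52. Neither value involves a listed 0. In B16 exosomes both 3p strands were at a listed 0, taken as 0 or, as added after the data were seen, as 9 reads. The log2 partner ratio in B16 exosomes was then 0.92 or 0.81. B16 exosomes over B16 cells gave -0.93 or -0.79 for mir-191 and 0.50 or 0.75 for mir-425. Of 83 recomputed values 49 lay within the counting interval of the value reported or, for counts of calls and for spans over the libraries, within 1.5 times. Some of the 83 could not differ from each other. A minimum of 10 reads equals no minimum, and taking a listed 0 as 9 reads matters only where a 0 is listed. Of the ratios reported at 2-fold or more, 2 changed direction, both of miR-191-5p in B16 exosomes over JB6 exosomes.

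The called miRNAs numbered 69 in B16 exosomes over B16 cells (36 higher, 33 lower), 37 where the interval itself had to pass 2-fold (23 and 14), 109 with TMM (16 and 93) and 266 with the authors' totals (9 and 257). In B16 exosomes over JB6 exosomes 94 were higher and 35 lower, against 61 and 97 with TMM, 57 and 109 with DESeq2, and 40 and 153 with the authors' totals. In JB6 exosomes over B16 cells there were 435 (131 higher, 304 lower), 250 among miRNAs listed in both, and 165 and 202 with TMM and 204 and 134 with DESeq2. Shifts by scaling are constant by construction; why the factors differ was not tested. No paired analysis was possible because each group had 1 library.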
